A study of Capra hircus with 6 samples.

Results

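Bone morphogenetic proteins (BMPs), their secreted antagonists and the ID genes they switch on were followed in goat skin. The genes were chosen by name: the ligands BMP2, BMP4 and BMP7, the antagonists NOG, GREM1, CHRDL1 and FST, and the targets ID1, ID2 and ID3. Of these 10 genes 9 were found by name among the 26951 genes of the table, and all 9 had enough reads to be tested, as did 15778 genes in all. No row carried the name CHRDL1, and 2 rows described as chordin-like protein 1 are given separately.

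The skin still held its hair follicles and came from Boer and Macheng Black crossbreds that are black on the head and white on the body. Black-coated skin gave 3 libraries, numbered 1 to 3, and white-coated skin gave 3, numbered 4 to 6, made from total RNA after removal of ribosomal RNA. The labels name no treatment and give neither age nor the body site of each sample. With a coat that is black on the head and white on the body, coat colour and site cannot be told apart. The number of goats is not given either, so p-values refer to the spread among these 6 samples alone, part of which may be technical. Depth ran from 12648817 reads on named genes in black replicate 1 to 22085079 in black replicate 3.

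BMPs are secreted ligands of the TGF-beta family. They bind type I and type II serine/threonine kinase receptors, which phosphorylate SMAD1, SMAD5 and SMAD9. These join SMAD4 and switch on target genes, the ID genes among them. ID proteins bind the E proteins, a class of basic helix-loop-helix factors, and keep them from DNA. In the mouse hair follicle BMP signals hold bulge stem cells at rest and are needed for hair shaft cells to mature, while noggin made by the mesenchyme allows a new follicle to form and a resting one to grow.

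Levels were given in CPM (counts scaled to library size) for comparisons between libraries. Comparisons between genes used FPKM, which is also scaled by transcript length, summed over the transcript rows of a gene. Log2 fold changes are of black over white and carry a standard error (SE). Values of single libraries are listed in the order of the replicate numbers.

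The white libraries held 934, 801 and 767 reads of LOC108634721, described as Y-linked, and black replicates 1, 2 and 3 held 1, 688 and 0. The black libraries thus came from more than 1 animal. Black replicates 1 and 3 nearly lacked these reads and no white library did, so by this gene sex was not balanced between the colours. The part of sex in the levels of the BMP genes was not tested. Black replicate 1 also stood apart in its cell type markers. The 12 hair shaft and inner root sheath markers found, of 15 listed, summed to 1273 CPM there, against 21506 and 27540 CPM in the other black libraries and 19895 to 22655 in the white ones. The 4 mast cell markers found, of 5, summed to 268 CPM in black replicate 1 and 33.5 to 87.9 CPM elsewhere, and the 6 macrophage markers to 919 CPM against 159 to 350 CPM. The 5 melanocyte markers summed to 36.3, 837 and 990 CPM in the black libraries and to 3.83 to 6.15 CPM in the white libraries. The marker lists of follicle, epidermis and dermis were detected in each library, and of the markers found only LEP, of adipocytes, had 0 reads throughout.

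On the FPKM scale the ID genes were the most abundant members and NOG the least. ID3 averaged 75.5 ± 26.6 FPKM (SD, n = 6 libraries of both colours), ID2 65.0 ± 12.1 and ID1 37.7 ± 18.4. ID3 exceeded ID2 in only 3 of 6 libraries, so their order is not settled, while ID2 exceeded ID1 and ID1 exceeded BMP4 in 6 of 6. BMP4 averaged 21.9 ± 5.32 FPKM, GREM1 18.3 ± 10.6, BMP7 12.4 ± 4.92 and BMP2 11.2 ± 4.51. Among these 4 genes neighbours in the order did not separate: BMP4 exceeded GREM1 in 4 of 6 libraries, GREM1 exceeded BMP7 in 3 and BMP7 exceeded BMP2 in 4. FST averaged 5.13 ± 1.81 FPKM and lay below BMP2 in 5 of 6 libraries, black replicate 1 being the exception. NOG averaged 0.404 ± 0.112 FPKM and lay below FST in 6 of 6.

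**Figure D1:**
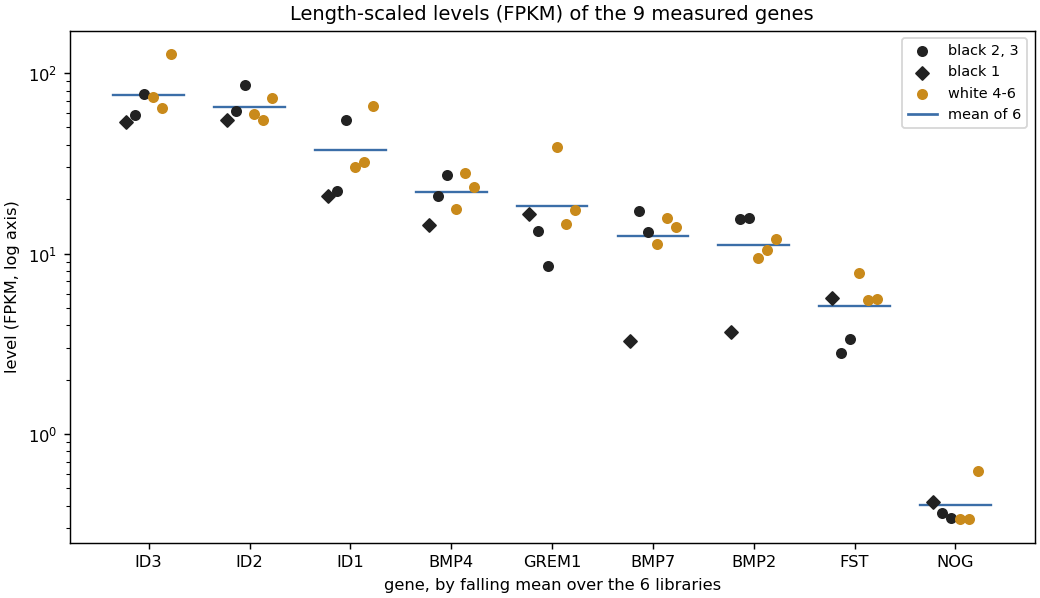
FPKM of the 9 measured genes in each of the 6 libraries, on a log axis, ordered by their mean (blue line). The ID genes lie highest and NOG lowest, and black replicate 1 (diamond) lies far below the other libraries for BMP7 (3.26 FPKM) and BMP2 (3.67 FPKM).

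None of the 9 members passed the test between black- and white-coated skin. In edgeR's quasi-likelihood test 0 of 9 had an adjusted p under 0.05, against 0.0% of all 15778 genes tested. At an unadjusted p under 0.05 the test found 536 genes (3.4%), among them 1 member, FST, which was lower in black-coated skin, as 1.75% of all genes were, while 0 members and 1.65% of all genes were higher. The adjusted p of each member was 0.999995 in edgeR. DESeq2 called 78 genes (0.496% of those with an adjusted p) and 0 members. Of the 9 members 7 had a log2 fold change below 0, against 47.0% of all genes tested, and their median was -0.24 against 0.02 over all genes. Without black replicate 1, 5 of 9 lay below 0, against 50.3% of all genes, and their median was -0.05. In each comparison fewer cells of a type and less RNA per cell cannot be told apart in whole skin.

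**Figure D2:**
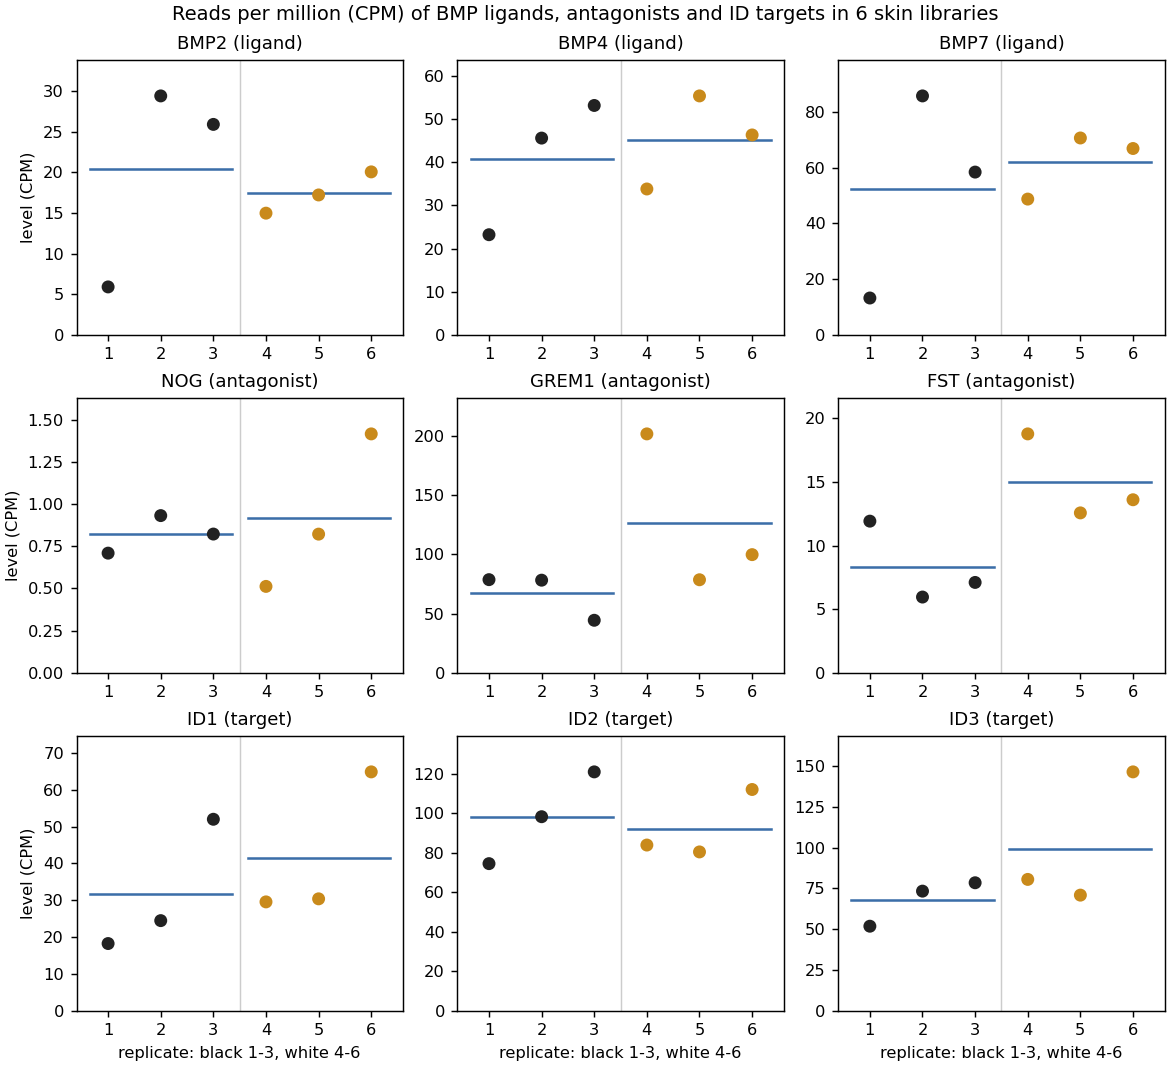
CPM of each member in black replicates 1 to 3 (dark points) and white replicates 4 to 6 (ochre points), with the mean of each group as a blue line and axes from 0. The groups separate for FST alone, whose black libraries lie at 5.95 to 11.9 CPM and white ones at 12.6 to 18.8.

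Of the ligands, BMP2, which in mouse skin is made by the follicle and by fat cells beneath it, stood at 5.89, 29.4 and 25.9 CPM in the black libraries. The white libraries stood at 14.97, 17.2 and 20.1 CPM. The groups overlapped because the lowest and the highest library were both black. The means were 20.4 ± 12.7 and 17.4 ± 2.55 CPM (SD, n = 3 each), with a log2 fold change of 0.23 (SE 0.53, 95% interval -1.04 to 1.497). Without black replicate 1 the 2 remaining black libraries lay above all white ones, with a log2 fold change of 0.67 (SE 0.20). BMP2 did not pass there either in edgeR (unadjusted p = 0.0102, adjusted p = 0.383), where 16 of 16022 genes did (0.0999%). Without black replicate 1 a higher black group that did not overlap the white one was found in 13.6% of genes tested.

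BMP7, a ligand of follicle epithelium and dermal papilla in the mouse, had the widest spread of the members, 6.50-fold from the lowest to the highest library. It stood at 13.2, 85.8 and 58.4 CPM in the black libraries and at 48.7, 70.7 and 66.9 CPM in the white libraries. The low value was that of black replicate 1, and the other black libraries lay within or above the white range. The log2 fold change was -0.24 (SE 0.58, 95% interval -1.63 to 1.14) and turned to 0.22 (SE 0.23) without that library.

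BMP4, a ligand made by the dermal papilla in the mouse, stood at 23.2, 45.6 and 53.2 CPM in the black libraries and at 33.8, 55.4 and 46.3 CPM in the white ones. The groups overlapped, with a log2 fold change of -0.15 (SE 0.34, 95% interval -0.95 to 0.65), which turned to 0.13 without black replicate 1 and to 0.02 without white replicate 5. Its 5 transcript rows carried nearly the same reads, the lowest row holding at least 89.0% of the reads of the highest in each library.

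Of the antagonists, FST, or follistatin, which binds activins most tightly and also some BMPs, was the member whose groups did not overlap. It stood at 11.9, 5.95 and 7.10 CPM in the black libraries and at 18.8, 12.6 and 13.6 CPM in the white ones. Every white library lay above every black one, though white replicate 5 exceeded black replicate 1 by little. Groups that do not overlap were found with black lower in 4.99% of all genes tested and with black higher in 3.81%. The means were 8.32 ± 3.17 and 14.99 ± 3.33 CPM, with a log2 fold change of -0.85 (SE 0.33, 95% interval -1.64 to -0.06, edgeR unadjusted p = 0.0378).

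FST was lower in black-coated skin by a larger margin without the library that stood apart, though it was not called there either. Without black replicate 1 its log2 fold change was -1.19 (SE 0.27, edgeR unadjusted p = 0.00256, adjusted p = 0.270), and leaving out each library in turn gave -1.19 to -0.65. The unadjusted p in edgeR was also under 0.05 without white replicate 5. It was not without black replicate 2 or 3 or white replicate 4 or 6. Nor was it with upper quartile scaling, with library totals or in limma on FPKM. On the FPKM scale the groups overlapped narrowly, at 5.66, 2.81 and 3.36 FPKM in the black libraries and 7.81, 5.51 and 5.61 FPKM in the white ones. FST had 2 transcript rows. The row with fewer reads, that of the curated follistatin precursor, held 48.2% to 60.3% of the reads of the other. Before scaling it had 100, 49 and 83 reads in the black libraries and 159, 129 and 99 in the white ones. On this row black replicate 1 and white replicate 6 were thus level, and the groups did not separate.

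A list of suprabasal keratinocyte markers also separated the groups and was lower in black-coated skin, as FST was. Relative to the mean over the libraries it stood at -0.98, -1.55 and -0.64 log2 units in the black libraries and at 1.81, 1.24 and 0.11 in the white ones (mean over the 5 markers found, of 6). The groups did not overlap with or without black replicate 1, while the summed CPM of the list did overlap, at 431 to 1530 CPM in black- and 1246 to 2830 CPM in white-coated skin. White replicate 4 was the highest library of the list, of FST and of GREM1. It was also the highest of the basal keratinocyte list (0.68), whose groups overlapped. Of the other lists only the melanocyte list separated the groups on this scale, and it was higher in black-coated skin. The part of these lists in the levels of the BMP genes was not tested.

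GREM1, or gremlin 1, which binds BMP2, BMP4 and BMP7, had the log2 fold change farthest from 0 among the members, at -0.92 (SE 0.40, 95% interval -1.87 to 0.03, edgeR unadjusted p = 0.0568). It stood at 78.7, 78.2 and 44.3 CPM in the black libraries and at 202, 78.6 and 99.8 CPM in the white ones. White replicate 4 lay far above the rest, and white replicate 5 lay level with black replicates 1 and 2. Without white replicate 4 the log2 fold change was -0.41, and the other libraries left out in turn gave -1.17 to -0.69. The unadjusted p of GREM1 was under 0.05 in edgeR with no filter or without white replicate 5, and in DESeq2. In the other settings run it was not.

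NOG, or noggin, which binds BMP4 and BMP2 and keeps them from their receptors, was barely detected. It had 10, 13 and 19 reads in the black libraries and 9, 14 and 20 in the white ones, or 0.710, 0.932 and 0.823 CPM against 0.512, 0.822 and 1.42 CPM. The groups overlapped, and the 95% interval of the log2 fold change (-0.15, SE 0.52) ran from -1.36 to 1.07. A difference in either direction within that interval could thus not be excluded. The direction of NOG turned without white replicate 6 (0.29).

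CHRDL1 is a chordin-like protein that binds BMP4. Of the rows described as chordin-like protein 1, LOC108634436, a partial model, averaged 21.0 ± 5.87 CPM in the black and 21.9 ± 4.61 CPM in the white libraries (log2 fold change -0.06, SE 0.28). LOC102183132 stood at 22.5, 11.1 and 12.3 CPM in the black libraries and at 21.3, 14.9 and 17.2 CPM in the white ones (log2 fold change -0.22, SE 0.32). In both rows black replicate 1 was the highest library. Without it LOC102183132 gave -0.61 (SE 0.23, edgeR adjusted p = 0.453). Whether both rows belong to the same gene is not stated, so their reads were not joined.

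Of the targets, ID1 stood at 18.2, 24.5 and 52.0 CPM in the black libraries and at 29.5, 30.4 and 64.8 CPM in the white ones. One library of each colour, black replicate 3 and white replicate 6, lay well above the rest, and the groups overlapped. The log2 fold change was -0.39 (SE 0.48, 95% interval -1.52 to 0.73). It was -0.96 without black replicate 3 and turned to 0.08 without white replicate 6.

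ID3 stood at 51.8, 73.3 and 78.4 CPM in the black libraries and at 80.5, 70.8 and 146 CPM in the white ones. White replicate 6 was again the highest library and the groups overlapped through white replicate 5. The log2 fold change was -0.55 (SE 0.32, 95% interval -1.30 to 0.20) and -0.16 without white replicate 6.

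ID2 was the steadiest member, spanning 1.62-fold between its lowest and highest library. It stood at 74.4, 98.2 and 121 CPM in the black libraries and at 83.8, 80.4 and 112 CPM in the white ones. The groups overlapped, and the 95% interval of the log2 fold change (0.09, SE 0.23) ran from -0.47 to 0.64. Leaving out each library in turn gave -0.09 to 0.25.

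Black replicate 1 was the lowest library for 6 of the 9 members, namely BMP2, BMP4, BMP7, ID1, ID2 and ID3, against 30.3% of all genes tested. For BMP2 and BMP7 it lay below 50% of the next lowest library, as it did for 6.50% of all genes. The antagonists NOG, GREM1 and FST were not lowest there: relative to its mean over the libraries FST stood at 0.14 log2 units in black replicate 1, while BMP2 stood at -1.51 and BMP7 at -1.91. The hair shaft and inner root sheath list stood at -3.42 in the same library and between 0.36 and 1.07 in the other 5. The dermal papilla list stood at -0.80 there and between -0.04 and 0.35 elsewhere, the mast cell list at 2.41 and the macrophage list at 1.78. Their part in the levels of the BMP genes was not tested.

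**Figure D3:**
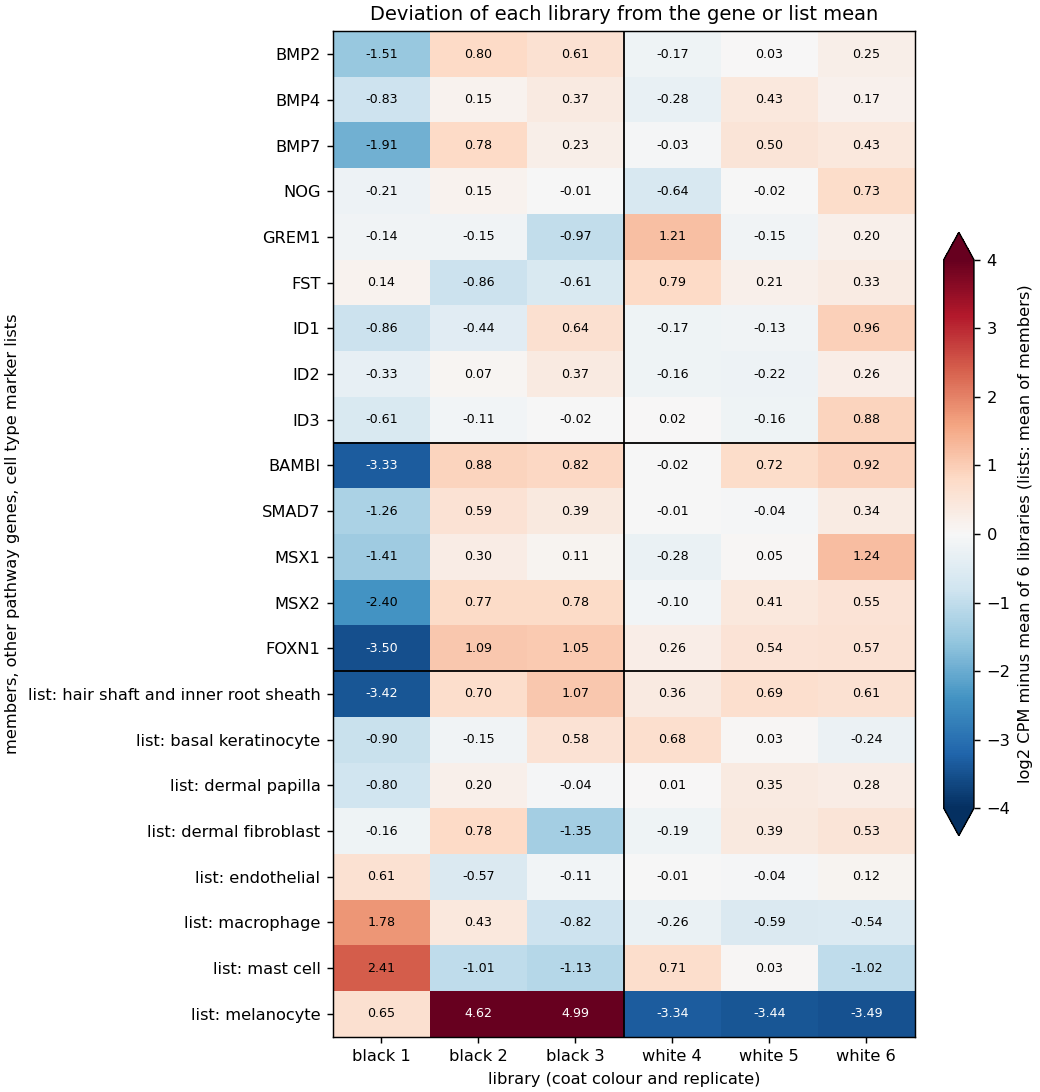
Log2 CPM of each gene in each library minus its mean over the 6 libraries, for the 9 members, 5 other genes of the pathway and 8 lists of cell type markers (mean over the list), with blue for low, red for high and colours capped at 4 either way. In black replicate 1 BAMBI (-3.33), FOXN1 (-3.50) and MSX2 (-2.40) lie lower than BMP7 (-1.91), as does the hair shaft list, of which FOXN1 is itself a member.

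The likeness of 2 profiles was measured as the root mean square difference of their log2 CPM over the 6 libraries, each centred on its own mean. Of the 36 pairs of members, BMP2 with BMP7 was the closest (0.31 log2 units), followed by ID1 with ID3 (0.33). NOG and BMP4 lay nearest to ID2 (0.33 and 0.34), and GREM1 to FST (0.42). The farthest pair was BMP7 with FST (1.18), the one lowest and the other near its mean in black replicate 1. With 6 libraries, of which 1 stood apart, these values describe the samples and no more.

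By the same measure, nearest genes were sought among tested genes with a mean of at least 1 CPM and no placeholder (LOC) name. Those nearest to BMP2 were SIAH2 (0.09) and PELI1 (0.09), and those nearest to BMP7 were MROH6 (0.10) and CHST1 (0.11). For BMP4 they were PREP (0.07) and ABCE1 (0.08). SLC13A4 (0.11) and LGI3 (0.13) lay nearest to FST, and NUDT17 (0.17) and SDCBP2 (0.18) to GREM1. FAM212B (0.20) and CSRNP2 (0.21) lay nearest to ID1, PROSER1 (0.06) and SEC61A2 (0.07) to ID2, and BBC3 (0.09) and CX3CL1 (0.16) to ID3. QPRT (0.08) and CCNE1 (0.09) were nearest to NOG, whose reads were few.

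The rest of the pathway was read from the same fit. Of 66 other genes listed by role 63 were found and 53 could be tested. In edgeR 0 of 53 were called (0.0% of all genes), and at an unadjusted p under 0.05 there was 1, lower in black-coated skin, against 1.75% of all genes tested in that direction. DESeq2 called 0. Their median log2 fold change was -0.04, and 32 of 53 lay below 0. The groups did not overlap with black lower in 4 of the 53 (BMP6, CHRDL2, KCP and ACVR2A) and with black higher in 1 (ENG), against 4.99% and 3.81% of all genes.

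Of 12 other ligands 5 could be tested, and 4 of these had a log2 fold change below 0. BMP6, a ligand close in sequence to BMP7, stood at 9.22, 6.02 and 5.41 CPM in the black libraries and at 10.9, 11.9 and 9.49 CPM in the white ones. The groups did not overlap, narrowly, and the log2 fold change was -0.65 (SE 0.29, edgeR unadjusted p = 0.0631). Without black replicate 1 it was -0.91 (SE 0.25, edgeR unadjusted p = 0.00752, adjusted p = 0.368). BMP3, a BMP that opposes the others, had the highest value (0.01, SE 0.55). BMP5 had too few reads to be tested, at 0.07 to 0.59 CPM, and BMP10, BMP15 and GDF2 had 0 reads in all 6 libraries, which allows up to 3 reads in each by counting error alone.

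Of 20 other antagonists and modulators 15 could be tested and 9 lay below 0. SOSTDC1, or ectodin, an antagonist expressed in developing skin appendages, stood at 10.8, 11.5 and 26.3 CPM in the black libraries and at 36.7, 38.2 and 21.1 CPM in the white ones. The groups overlapped through black replicate 3, with the lowest log2 fold change of the list, -0.98 (SE 0.41). KCP, a secreted chordin-like modulator, was the gene at an unadjusted p under 0.05, at 6.24, 5.45 and 3.42 CPM against 7.80, 8.81 and 12.3 CPM (log2 fold change -0.94, SE 0.34, edgeR unadjusted p = 0.0283). It was named after its value was seen. CHRD, or chordin, averaged 9.40 ± 3.24 CPM in the black and 8.81 ± 1.39 CPM in the white libraries (log2 fold change 0.09, SE 0.32), and FSTL1, a secreted protein related to follistatin, had the highest value of the list (0.47, SE 0.53).

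Of 13 receptors and co-receptors 12 could be tested and 7 lay below 0. The type I receptors BMPR1A (106 ± 15.8 CPM in white- and 93.0 ± 19.5 CPM in black-coated skin) and ACVR1 (83.2 ± 5.38 and 89.7 ± 19.4 CPM) had log2 fold changes of -0.18 (SE 0.21) and 0.11 (SE 0.20). BMPR1B, another type I receptor, was scarce at 3.13 to 7.75 CPM. The type II receptor BMPR2 differed little between libraries, from 112 to 145 CPM (log2 fold change -0.05, SE 0.18, 95% interval -0.49 to 0.38). ACVR2A, which binds activins and some BMPs, had the lowest value, -0.41 (SE 0.18), with groups that did not overlap (34.4 to 45.8 CPM in black- and 48.4 to 57.6 CPM in white-coated skin, edgeR unadjusted p = 0.0513). ENG, or endoglin, a co-receptor of endothelial cells, had groups that did not overlap the other way, with a log2 fold change of 0.30 (SE 0.18), at 173 to 224 CPM in the black and 150 to 159 CPM in the white libraries. TGFBR3, another co-receptor, had the highest value (0.41, SE 0.28). BAMBI, a decoy receptor that is itself a BMP target, stood at 9.44, 176 and 169 CPM in the black libraries and at 94.5, 158 and 181 CPM in the white ones, and was lowest in black replicate 1, as BMP2 and BMP7 were.

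All 10 SMADs and regulators could be tested, with log2 fold changes from -0.32 (SKIL, a SMAD corepressor) to 0.15 (SMURF1, a ubiquitin ligase for SMADs) and 0 pairs of groups without overlap. The signal carriers SMAD1 (-0.02, SE 0.18), SMAD5 (-0.18, SE 0.22) and SMAD9 (-0.25, SE 0.24) and their partner SMAD4 (0.04, SE 0.16) had overlapping groups. The inhibitory SMADs are induced by the pathway and feed back on it. SMAD7 stood at 18.3, 66.2 and 57.8 CPM in the black libraries and at 43.6, 42.9 and 55.7 CPM in the white ones (log2 fold change 0.00, SE 0.44), and SMAD6 at 7.31, 14.3 and 15.9 against 12.01, 15.5 and 19.2 CPM (log2 -0.31, SE 0.35). Both were lowest in black replicate 1.

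All 11 targets and ID partners could be tested, 6 of them with a log2 fold change below 0 and 0 without overlap between groups. ID4, the remaining ID gene, stood at 71.7, 66.5 and 121 CPM in the black libraries and at 94.9, 83.9 and 82.8 CPM in the white ones (log2 fold change -0.01, SE 0.25). MSX1, a homeobox target of BMPs, stood at 19.8, 64.8 and 56.7 CPM against 43.5, 54.5 and 124 CPM (-0.65, SE 0.54), with white replicate 6 the highest library as for ID1 and ID3. MSX2, its relative in the hair matrix, stood at 21.3, 192 and 193 CPM against 105, 150 and 165 CPM (-0.04, SE 0.71). ATOH8, a helix-loop-helix factor, had the highest value (0.29, SE 0.44). Black replicate 1 lay below 50% of the next lowest library for 5 of the 11, against 6.50% of all genes tested. They were MSX1, MSX2, DLX3, GATA3 and FOXN1, of which FOXN1 is also in the hair shaft and inner root sheath list.

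**Figure D4:**
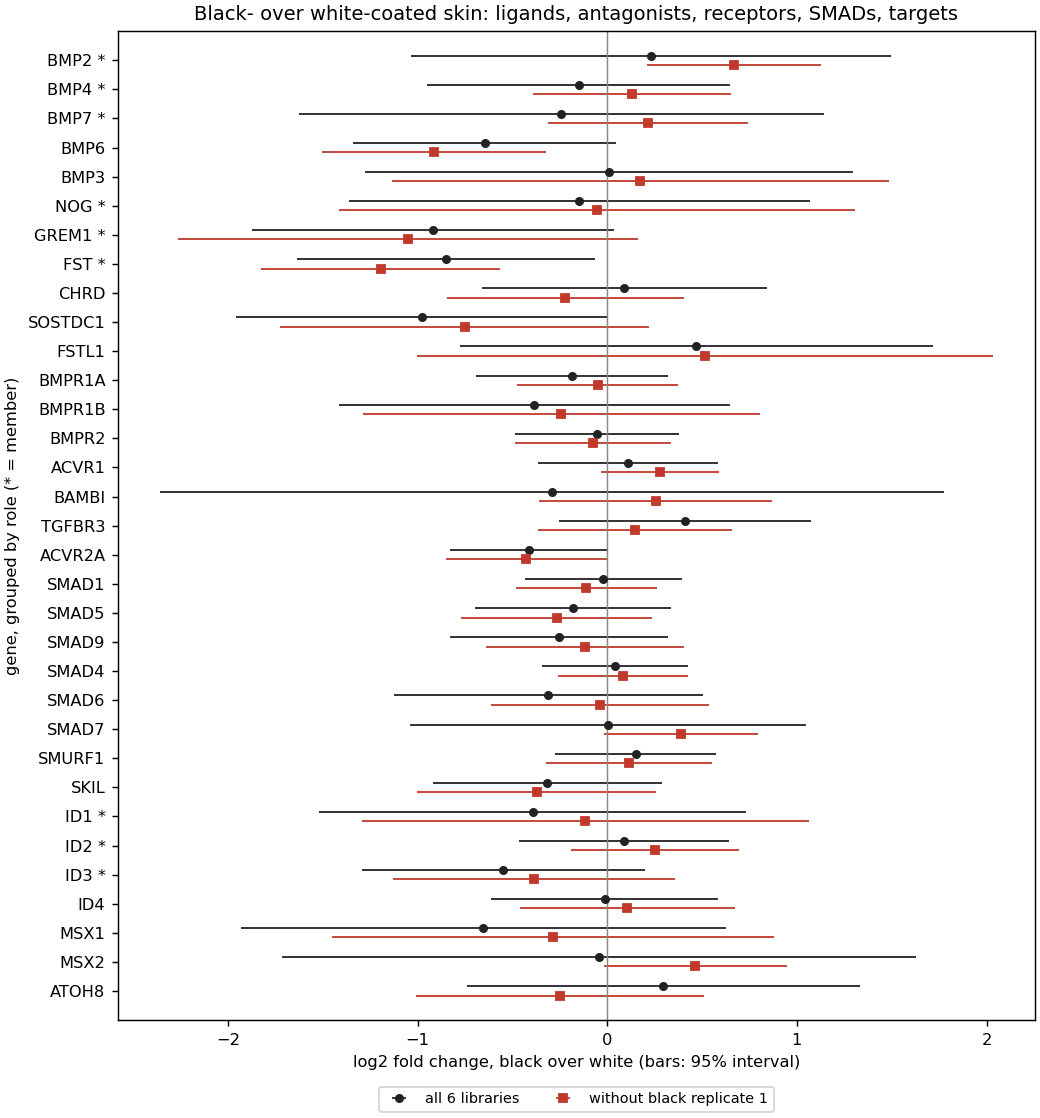
Log2 fold change of black- over white-coated skin with its 95% interval for the members (starred) and the other named genes, by role, from all 6 libraries (dark circles) and without black replicate 1 (red squares). With all libraries the interval of 1 member, FST, excludes 0. Without black replicate 1 those of the members FST (-1.83 to -0.56) and BMP2 (0.21 to 1.13) do. So do those of BMP6 (-1.50 to -0.32) and ACVR2A (-0.85 to -4.4e-04) among the other genes shown. None passes the adjustment over all genes.

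Without black replicate 1 the median log2 fold change of the 9 members was -0.05, with 5 of 9 below 0, against 50.3% of all genes. At an unadjusted p under 0.05 there were then 1 lower (FST, 5.28% of all genes) and 1 higher (BMP2, 4.77%). Among the other 53 genes there were 5 lower and 1 higher at that level, and 0 were called in edgeR.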

How the data were processed

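The deposited table held raw read counts per transcript row and, for the same rows, FPKM values that the authors scaled by transcript length and library size, per the file headers. Bowtie2 2.0.6, HISAT2 and Cufflinks are named in the submitters' processing notes, with no role. Not given in the sources used here are the counting program, genome build, annotation and use of strand, and reads of overlapping genes could be mixed. Of 53266 rows, 189 had no gene name (0.00376% to 0.0675% of a library's counts) and 1770 were transfer RNA (at most 4.67e-04%). Both were left out. Each gene was read from its row with the largest total, without adding rows, while FPKM was added over rows.

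EdgeR 4.0.16 under R 4.3.3 was run on the counts (filterByExpr, TMM factors of 0.872 to 1.12, robust quasi-likelihood test), with p-values adjusted by Benjamini-Hochberg over all genes and calls at 0.05. The biological coefficient of variation was 37.3%. The SE was the log2 fold change over the square root of F, and intervals used the test's t distribution. Centred levels were log2 CPM with a prior count of 1. Alternatives used limma 3.58.1 and DESeq2 1.42.0. On simulated counts of 15778 genes for this comparison 8% of genes planted at 2-fold were found, 52% of those at 4-fold, and 96% of those at 16-fold and at 64-fold. Of 139 calls there 13 were false. Each simulated library was drawn independently around the mean of its gene and group. No simulated library stood apart over many genes as black replicate 1 did, so these shares need not hold for the data.

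Members and lists were chosen with earlier results of these data known. Named were the 10 members, a fixed set of pathway genes, called genes and the highest and lowest log2 fold change per role. Also named were the 2 genes most like each member, among tested genes with a mean of at least 1 CPM. Genes with a placeholder (LOC) name were left out of that search. KCP, CHRDL2, ENG, DLX3, GATA3, FOXN1, BMP10, BMP15 and GDF2 were named outside this rule, after their values were seen. For 12 listed symbols the row was found through its description or an older symbol. The 3 listed pathway genes that were not found were not analysed here.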

Additional observations from a re-analysis of the deposited data

How the results depend on the processing

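Alternatives were other scalings, filters and tests, FPKM in place of counts, the mean of a gene's rows, a threshold of 0.01 and leaving out each library. In each of them 0 members and 0 other pathway genes were called. Over all genes, edgeR and limma called 0 with all libraries, except that limma-voom with library quality weights called 3, and DESeq2 called 78. Leaving out 1 library gave 0 to 16 calls: 16 without black replicate 1, 6 without black replicate 2 and 1 without white replicate 4. NOG gave no value at a minimum of 1 CPM in 3 libraries. No paired analysis was possible because the groups share no replicate numbers.

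The log2 fold changes of FST, GREM1 and ID3 kept their sign in every setting run. Leaving out each library in turn changed the sign of 6 members: BMP2 ran from -0.13 to 0.67, BMP4 from -0.39 to 0.13, BMP7 from -0.79 to 0.22, NOG from -0.44 to 0.29, ID1 from -0.96 to 0.076 and ID2 from -0.090 to 0.25. It also changed that of 11 other genes: BMPR2 (-0.15 to 0.031), SMAD1 (-0.11 to 0.10), SMAD4 (-0.055 to 0.083), SMAD7 (-0.32 to 0.39), ID4 (-0.33 to 0.14), BAMBI (-0.70 to 0.25), MSX2 (-0.38 to 0.46), CHRD (-0.22 to 0.27), BMP3 (-0.45 to 0.59), FSTL1 (-0.16 to 0.87) and ATOH8 (-0.25 to 0.59). BMP2 was -0.087 on log2(FPKM + 1) and -0.13 on log2(FPKM + 0.1). Library quality weights turned MSX2 (0.026), CHRD (-0.11), ATOH8 (-0.19) and ID4 (0.0021). Library totals turned ID4 (0.024) and SMAD1 (0.0028). SMAD7, near 0 in the main edgeR fit, was -0.019 with upper quartile scaling, -0.022 with library totals and -6.27e-04 with the filter at 1 CPM. It was -0.0010 with the mean of rows, -0.17 with limma-voom, and -0.13 and -0.15 on log2(FPKM + 1) and log2(FPKM + 0.1). The cause was not tested.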
